A study of Homo sapiens with 8 samples.

Results

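MGST1, MGST2, MGST3, GSTP1, GPX1, GPX4, GCLC, GCLM, NQO1 and TXNRD1 are enzymes of glutathione chemistry and antioxidant defence. The set was chosen by a measured value, the footprint level of MGST1, which differed by more than 20-fold between the 2 control groups of the study. That contrast is therefore described here and not tested. Of these 10 genes, 9 were among the 17179 gene symbols of the files, with 1 feature each, and GCLC was not analysed here. All 9 passed the filter on low counts, which left 13306 genes, although MGST1 passed it through the libraries of 1 arm only.

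The libraries measured ribosome footprints, the short stretches of mRNA that a ribosome shields from nuclease, in 293T cells, which derive from human embryonic kidney and express the large T antigen of SV40. The 8 libraries fell into 4 groups of 2. One arm compared a non-cleaving short hairpin RNA, shNBD1, with an shRNA control, and the other compared miRNA inhibitors with an inhibitor control. All groups shared the same line, medium and lysis with cycloheximide, and the design text gives translation under both treatments as the question. The labels spell out neither NBD1 nor which miRNAs were inhibited. Whether the 2 libraries of a group were separate cultures is not stated, so the p-values reflect a spread between libraries that may be technical. With no matched RNA libraries used here, a difference in footprints can come from mRNA level, translation or both. In these bulk samples, fewer cells of a kind and less RNA per cell cannot be told apart.

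Glutathione is a small cysteine-containing peptide that cells use to neutralise peroxides and reactive compounds. Glutathione transferases attach it to such compounds, glutathione peroxidases spend it to reduce peroxides, and glutamate-cysteine ligase makes its precursor. The thioredoxin system is a parallel source of reducing power. Many of these genes are controlled by NRF2, encoded by NFE2L2, which pairs with small MAF proteins on antioxidant response elements in promoters, while KEAP1 marks NRF2 for degradation and BACH1 competes for the same sites.

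Because NRF2 sites are the feature that these genes are best known to share, the RefSeq promoter windows (GRCh38.p14, 250 bases before to 50 after each annotated start) were searched for the core letters TGACNNNGC on both strands, which read GCNNNGTCA when the site lies on the other strand. Windows existed for 8 of the 9 genes. The letters stood in the windows of 4 of the 8 genes, GCLM, GSTP1, MGST1 and TXNRD1, against 16.06% of 27305 genes in the table. By window, 5 of 13 windows held them (38.46%), against 13.35% of 35116 windows. The windows of MGST3, GPX1, NQO1 and GPX4 did not hold these letters, which says nothing of sites elsewhere. Each match is given with 10 flanking bases on each side, on the strand of the gene, with the matched letters in capitals. That of MGST1 lies just after the start site, the middle one of TXNRD1 reaches it, and the others lie before it. A match of letters is a description and not a binding site.
GCLM, chr1:93909446-93909474, minus strand: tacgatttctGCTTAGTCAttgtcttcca
GSTP1, chr11:67583736-67583764, plus strand: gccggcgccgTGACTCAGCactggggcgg
MGST1, chr12:16347135-16347163, plus strand: ggggacatcgTGACAAAGCaaattgtctg
TXNRD1, chr12:104215670-104215698, plus strand: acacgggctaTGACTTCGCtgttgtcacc
TXNRD1, chr12:104215761-104215789, plus strand: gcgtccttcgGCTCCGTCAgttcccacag
TXNRD1, chr12:104286920-104286948, plus strand: gtggatttctGCTTTGTCAttctgactct

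Total counts ranged from 11218980 to 19854218 per library, and the 9 enzymes together took between 0.0853% and 0.0952% of them. GSTP1 alone held between 54.9% and 61.8% of that share. Levels are given as CPM (counts-per-million) on library sizes scaled by the trimmed mean of M-values (TMM). CPM are not divided by gene length, so they compare libraries for 1 gene and not genes with each other. Replicates differed least in the shRNA arm, with a median absolute log2 difference over genes of 0.10 with shNBD1 and 0.08 in its control, against 0.17 with the miRNA inhibitors and 0.16 in their control. On principal components of log2 CPM over the tested genes, the first (56.1% of the variance) separated the arms, and on the third (9.63%) miRNA inhibitors replicate 2 and inhibitor control replicate 1 stood apart, at -23.5 and 20.4 against -8.66 to 8.76 for the other 6 libraries. Values of the enzymes that turn on these 2 libraries are given with and without both. The fit without both leaves 1 library in each group of the inhibitor arm. Its spread comes from the shRNA arm alone, so no call that uses the inhibitor arm is read from it. Of 8 genes that 293T cells are known to express, 7 were analysed and all were detected in every library.

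**Figure D1:**
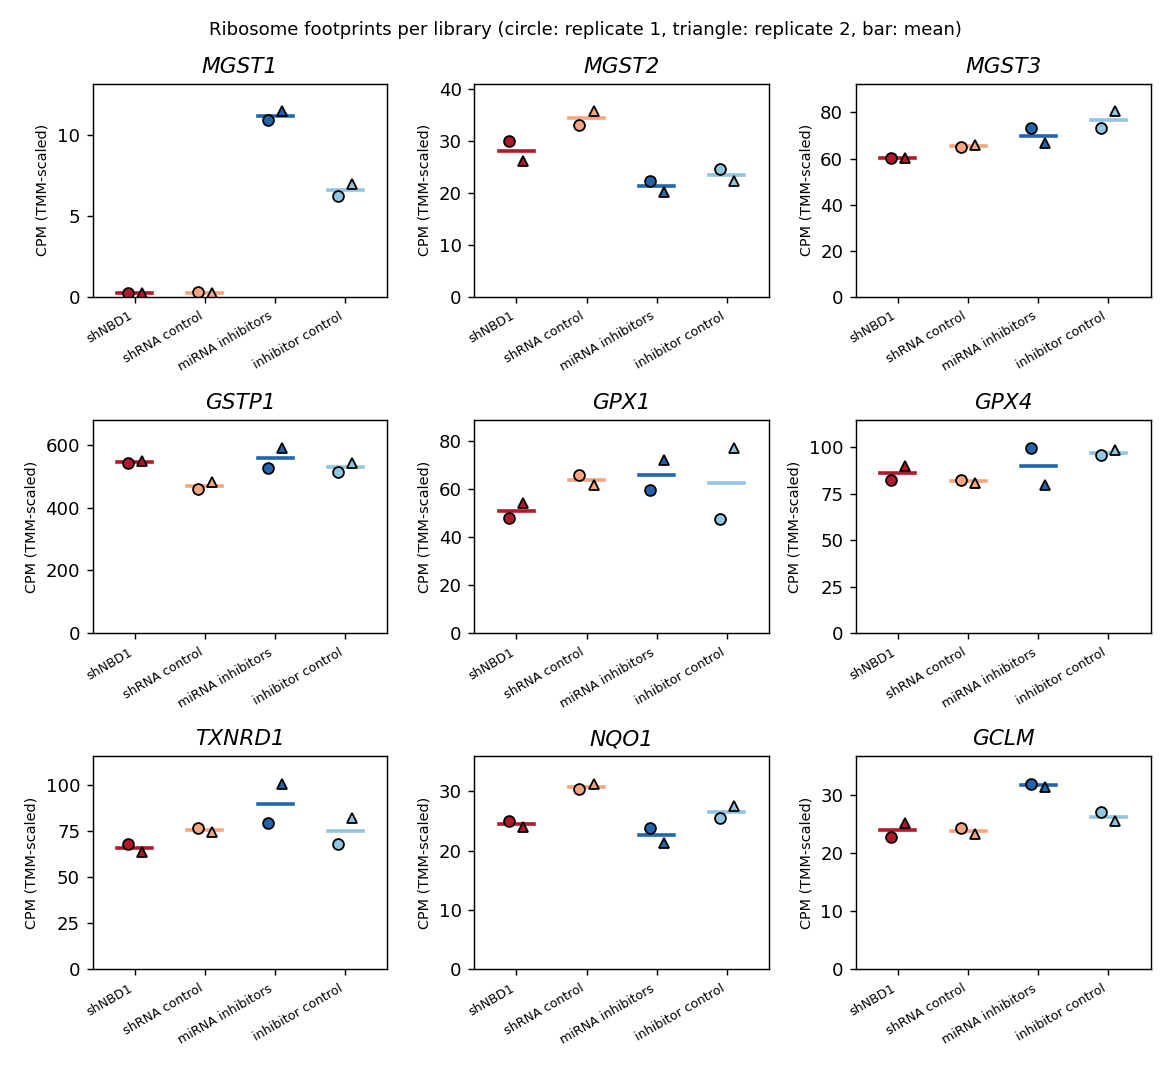
Ribosome footprints of the 9 enzymes in each library, in CPM (vertical axes from 0), for shNBD1, the shRNA control, the miRNA inhibitors and the inhibitor control. Circles are replicate 1, triangles replicate 2 and bars the mean of each group. MGST1 lies below 0.3 CPM in the 4 libraries of the shRNA arm and above 6 CPM in the 4 libraries of the inhibitor arm.

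A gene was called where its adjusted p (edgeR quasi-likelihood, Benjamini-Hochberg over 13306 genes) was under 0.05. Counted over the set, shNBD1 against its control gave 0 of 9 enzymes called higher (9.18% of all genes) and 1 called lower (9.15% of all genes), where 18.3% of all tested genes were called in either direction. The set's share is no higher than this background. Without both libraries that stood apart, 1 was called higher (GSTP1) and 4 lower (MGST2, GPX1, NQO1 and TXNRD1), where 39.1% of all genes were called. The median log2 fold change of the 9 was -0.20 and that of all genes 0.00. Both shNBD1 libraries lay below both controls for 6 of the 9 (34.3% of all genes did) and above them for 1 (34.7% of all genes). MGST1 is among the 6, with 3 and 3 reads against 4 and 3, so nothing is read from its order. With the miRNA inhibitors 0 of 9 were called by edgeR, where 0.12% of all genes were (0.0376% higher and 0.0827% lower). At an unadjusted p under 0.05 there were 3 of 9 and 2183 of 13306 genes. The 3 were MGST1, GCLM and NQO1, and nothing is read from MGST1, since its inhibitor control helped choose the set. DESeq2, which called 40 genes higher and 70 lower, called none of the 8 enzymes to which it gave an adjusted p. It gave none for MGST1. Both treated libraries lay above both controls for 2 of the 9, GCLM and MGST1 (20.5% of all genes), and below for 3 (20.3% of all genes). The difference between the treatment effects was called by edgeR for 0 of 9 (7.44% of all genes, 3.48% higher and 3.96% lower), with 1 of 9 and 3254 of all genes at an unadjusted p under 0.05. Between the treated groups 1 enzyme was called higher with shNBD1, MGST2, and 3 lower, MGST1, GCLM and TXNRD1, where 32.3% of all genes were called (15.9% higher and 16.5% lower). Nothing is read from the call of MGST1, the gene whose gap between the arms chose the set. Both shNBD1 libraries lay above both inhibitor libraries for 2 of 9 (33.3% of all genes) and below for 5, MGST1 among them (34.2% of all genes).

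**Figure D2:**
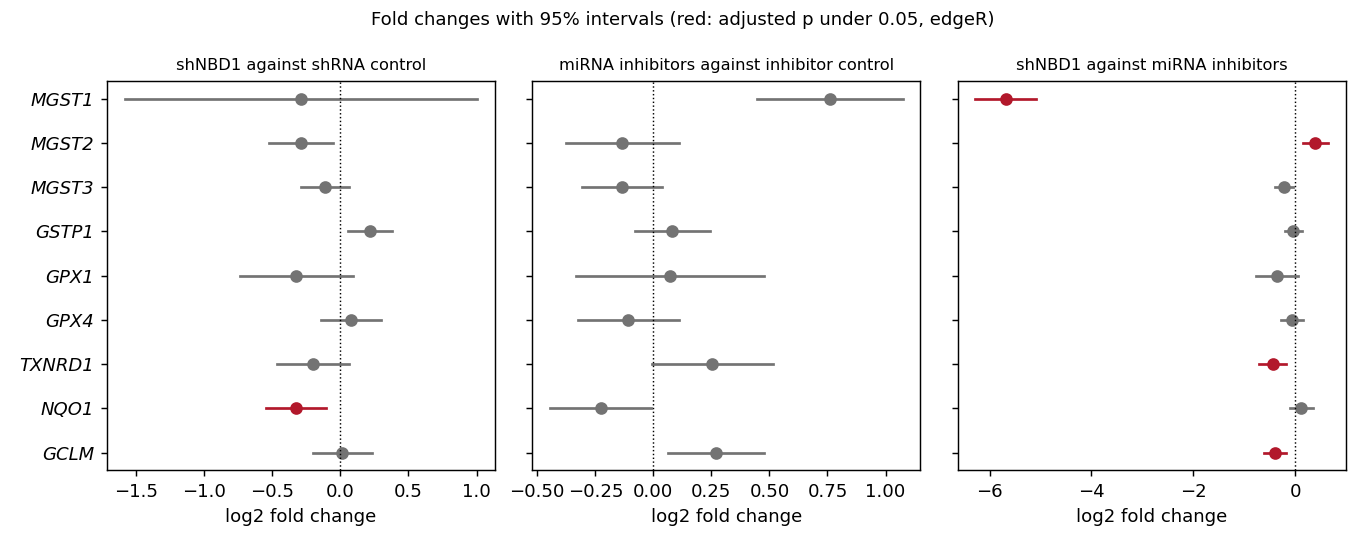
Log2 fold changes of the 9 enzymes (dots, horizontal axes, each panel with its own scale) with 95% intervals (lines) for shNBD1 against the shRNA control, the miRNA inhibitors against the inhibitor control, and shNBD1 against the miRNA inhibitors. Red marks an adjusted p under 0.05, which NQO1 reached in the left panel and none in the middle one. In the right panel MGST1, MGST2, TXNRD1 and GCLM reached it. MGST1 chose the set and passed the filter through the inhibitor arm only, so nothing is read from its intervals or its mark.

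MGST1 (ENSG00000008394, chr12:16347115-16593331) encodes a membrane-bound transferase of the endoplasmic reticulum and outer mitochondrial membrane that also reduces lipid hydroperoxides. Its footprints stood at 0.213 and 0.204 CPM with shNBD1 and at 0.266 and 0.246 CPM in the shRNA control. In the inhibitor arm they stood at 10.9 and 11.4 CPM with the miRNA inhibitors and at 6.24 and 6.94 CPM in their control. The 2 arms did not overlap, and within each arm the treated and control libraries did not overlap either. The raw counts were 3 and 3 with shNBD1 and 4 and 3 in the shRNA control, so each level in the shRNA arm rests on a handful of reads. In the inhibitor arm the counts were 175 and 121 with the miRNA inhibitors and 122 and 136 in their control.

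The contrast that chose the set is given as values alone. Between the controls, MGST1 was 24.9-fold lower in the shRNA control than in the inhibitor control by the fitted log2 fold change of -4.64. From 7 reads against 258, the ratio was 25.7-fold with a 95% counting interval of 12.3 to 64.5, which covers counting error only. In the same contrast 38 of 13306 genes were at least 20-fold lower and 14 at least 20-fold higher, and MGST1 ranked 32 from the lowest. The other 8 enzymes lay between -0.25 (GPX4) and 0.56 (MGST2) in log2, so 1 of 9 differed by at least 2-fold, a size that 6.24% of all genes reached. Both libraries of the shRNA control lay below both of the inhibitor control for 5 of 9 enzymes (33.4% of all genes) and above for 2, MGST2 and NQO1 (33.7% of all genes).

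In the treated libraries, which the choice of genes did not use, MGST1 was 51.5-fold lower with shNBD1 than with the miRNA inhibitors by the fitted log2 fold change of -5.69. From 6 reads against 296 the ratio was 53.4-fold, with a counting interval of 24.2 to 147. MGST1 passed the filter only through the inhibitor arm, so its fold is given as a description. In this contrast 45 genes were at least 20-fold lower and 2 at least 20-fold higher. Between treated groups the arm and the treatment cannot be told apart.

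Comparisons of MGST1 within an arm use 1 of the control groups that chose the set, so they too are given as values alone. With shNBD1 against its control the log2 fold change was -0.29. At 6 reads against 7, the counting interval of the ratio ran from 0.226 to 2.83, so a change of 2-fold in either direction was not detectable at this depth.

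With the miRNA inhibitors MGST1 averaged 11.2 ± 0.36 CPM, against 6.59 ± 0.50 CPM in their control (SD, n = 2 each). Both treated libraries lay above both controls, the log2 fold change was 0.76, and the ratio of counts was 1.69 with a counting interval of 1.43 to 2.01. Without both of the libraries that stood apart the log2 fold change was 0.65.

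MGST2 (ENSG00000085871, chr4:139665819-139754618), a relative of MGST1 that can make leukotriene C4, ran the other way between the arms. It stood at 30.01 and 26.2 CPM with shNBD1 and at 33.1 and 35.7 CPM in the shRNA control, and at 22.3 and 20.2 CPM with the miRNA inhibitors and 24.5 and 22.3 CPM in their control. Every library of the shRNA arm lay above every library of the inhibitor arm. Among the treated libraries MGST2 was higher with shNBD1 than with the miRNA inhibitors by 0.40 ± 0.11 in log2 (adjusted p = 0.0192). The call was lost without shNBD1 replicate 1 (adjusted p = 0.1497) and without miRNA inhibitors replicate 2 (0.0673). Within the arms no call was made: the log2 fold change was -0.29 ± 0.11 with shNBD1 (adjusted p = 0.0829) and -0.13 ± 0.11 with the miRNA inhibitors (adjusted p = 0.565), and in both cases both treated libraries lay below both controls, in the inhibitor arm by a margin that does not show at 3 digits.

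MGST3 (ENSG00000143198, chr1:165631234-165656136), the third microsomal transferase, reduces lipid hydroperoxides with glutathione. It stood at 60.3 and 60.4 CPM with shNBD1 and at 64.9 and 65.8 CPM in the shRNA control. In the inhibitor arm it stood at 73.1 and 66.8 CPM with the inhibitors, against 73.1 and 80.4 CPM in their control. The treated libraries of each arm lay below their controls, by a margin that does not show at 3 digits in the inhibitor arm. The log2 fold changes were small, -0.11 ± 0.08 (adjusted p = 0.344) and -0.13 ± 0.08 (0.414). The gap between the treated groups, -0.21 ± 0.08, did not pass (0.0613), and it was -0.27 without both libraries that stood apart.

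GSTP1 (ENSG00000084207, chr11:67583812-67586653) is the soluble pi-class transferase. It stood at 544.8 and 550.4 CPM with shNBD1 and at 460.2 and 481.7 CPM in the shRNA control. In the other arm it stood at 528.8 and 592.2 CPM with the miRNA inhibitors, against 514.3 and 544.5 CPM in their control. GSTP1 was the single enzyme of the set whose shNBD1 libraries both lay above both controls. Its log2 fold change of 0.22 ± 0.07 missed the threshold over all 8 libraries (adjusted p = 0.0616) and passed in 8 of 18 alternative analyses, among them the fit on the 4 libraries of the shRNA arm alone (5.94e-05), in which 41.9% of all genes were called. Under the miRNA inhibitors the log2 fold change was 0.08 ± 0.07 (adjusted p = 0.597). The difference between the effects was 0.14 ± 0.10 (0.461), and it was 0.26 without both libraries that stood apart.

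Of the peroxidases, GPX1 (ENSG00000233276, chr3:49357176-49358353) reduces hydrogen peroxide in the cytosol and carries selenocysteine. It stood at 48.0 and 54.1 CPM with shNBD1 and at 65.9 and 61.6 CPM in the shRNA control, without overlap. GPX1 stood at 59.5 and 72.3 CPM with the miRNA inhibitors, against 47.6 and 77.3 CPM in their control, so the treated libraries lay inside the range of the controls. The log2 fold change with shNBD1 was -0.32 ± 0.19 (adjusted p = 0.257), with an interval from -0.73 to 0.09, and it passed in 4 of 18 alternative analyses. For the miRNA inhibitors it was 0.07 ± 0.18 (adjusted p = 0.872), and it turned to -0.38 without the 2 libraries that stood apart. The gap between the treated groups, -0.36 ± 0.19 (0.162), was -0.22 without both. Within the inhibitor arm, the 2 GPX1 libraries of each group differed by more than the group means, which were 65.9 ± 9.07 CPM with the miRNA inhibitors and 62.4 ± 21.0 CPM in their control (SD, n = 2 each).

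GPX4 (ENSG00000167468, chr19:1103994-1106779), also a selenoenzyme, reduces phospholipid hydroperoxides in membranes and so restrains ferroptosis. It stood at 82.3 and 89.9 CPM with shNBD1 and at 82.5 and 80.6 CPM in the shRNA control. It stood at 99.7 and 79.6 CPM with the miRNA inhibitors and at 95.5 and 98.4 CPM in their control. In both arms the treated and control libraries overlapped. The log2 fold changes were 0.08 ± 0.10 with shNBD1 (interval from -0.14 to 0.30) and -0.11 ± 0.10 with the miRNA inhibitors (interval from -0.33 to 0.11), with adjusted p-values of 0.621 and 0.607. Between the treated groups GPX4 was at -0.06 ± 0.10 (0.661), and at -0.21 without both libraries that stood apart.

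TXNRD1 (ENSG00000198431, chr12:104215779-104350307), the cytosolic selenoprotein that keeps thioredoxin reduced, stood at 68.2 and 63.7 CPM with shNBD1 and at 77.0 and 74.5 CPM in the shRNA control. The miRNA inhibitors gave 79.3 and 100.7 CPM, against 68.0 and 82.4 CPM in their control. It was lower than its control in both shNBD1 libraries, while the inhibitor libraries overlapped. Neither treatment gave a call, with log2 fold changes of -0.20 ± 0.12 for shNBD1 (adjusted p = 0.273) and 0.25 ± 0.12 for the miRNA inhibitors (0.313). Their difference, -0.45 ± 0.17, was not called either (0.128), and without the 2 libraries that stood apart it was -0.14. Among the treated libraries TXNRD1 was lower with shNBD1 than with the miRNA inhibitors, at a log2 fold change of -0.44 ± 0.12 (adjusted p = 0.0172), a call that was lost without either shNBD1 library (0.0648 and 0.124) and without miRNA inhibitors replicate 2 (0.108). Without both libraries that stood apart it was -0.26.

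NQO1 (ENSG00000181019, chr16:69709401-69726560), which reduces quinones and is a classical NRF2 target, was the single enzyme called with shNBD1. It stood at 25.1 and 24.1 CPM with shNBD1, against 30.3 and 31.3 CPM in the shRNA control. The log2 fold change was -0.32 ± 0.10 with an interval from -0.54 to -0.11, an adjusted p of 0.0436 and a fold of 1.252 lower. The call was held in 12 of 18 alternative analyses. It was lost with DESeq2 (adjusted p = 0.129), with no filter on low counts (0.055) and without any single library of the comparison (0.134 to 0.251). Under the miRNA inhibitors NQO1 stood at 23.9 and 21.3 CPM, against 25.5 and 27.6 CPM in their control, again with both treated libraries below both controls, but the log2 fold change of -0.23 ± 0.10 was not called (0.289). The effects of the 2 treatments differed by -0.10 ± 0.14 (0.723).

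GCLM (ENSG00000023909, chr1:93885199-93909430) is the modifier subunit of glutamate-cysteine ligase and, with GCLC not analysed here, the one subunit of that enzyme measured. It stood at 22.8 and 25.2 CPM with shNBD1 and at 24.3 and 23.2 CPM in the shRNA control, groups that overlapped. It stood at 31.9 and 31.4 CPM with the miRNA inhibitors, above 27.0 and 25.5 CPM in their control. The log2 fold change was 0.02 ± 0.10 with shNBD1 (interval from -0.20 to 0.23, adjusted p = 0.929) and 0.27 ± 0.09 with the miRNA inhibitors (adjusted p = 0.201, not called in any of 18 alternative analyses). Between the treated groups GCLM was lower with shNBD1, at a log2 fold change of -0.40 ± 0.10 (0.00981), a call held in 17 of 18 alternatives. The call was lost without shNBD1 replicate 1 (0.0949).

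Genes that tracked MGST1 most closely were ranked by Pearson's r of log2 CPM over the 8 libraries, among 7308 genes with a mean of at least 20 CPM in some group. These libraries fall into 2 arms, so r mostly orders genes by how they separate the arms and is given as a description. The 10 highest were MAP2K1 (0.997), CIZ1, MT-ND4L, UNC13D, FYTTD1, UBA1, PKP3, APOL2, SIK2 and MTA2 (0.992). The 5 lowest ran from RNASEH2A (-0.992) through VKORC1, HNRNPA3 and RNF10 to CAV1 (-0.995). Of the 10, UNC13D, a factor of granule exocytosis, and PKP3, a desmosomal plakophilin, came nearest to MGST1 in size. UNC13D averaged 0.93 CPM with shNBD1 and 0.97 CPM in the shRNA control, against 31.1 CPM with the miRNA inhibitors and 18.9 CPM in their control. PKP3 averaged 1.97 CPM with shNBD1 and 1.94 CPM in the shRNA control, against 21.7 CPM with the miRNA inhibitors and 15.1 CPM in their control. MAP2K1, a kinase of the MAPK cascade, averaged 65.3 CPM with shNBD1 and 64.6 CPM in the shRNA control, against 91.4 CPM with the miRNA inhibitors and 86.8 CPM in their control, a far smaller gap. Within the set, r with MGST1 was 0.84 for GCLM, 0.78 for MGST3, 0.62 for TXNRD1, 0.54 for GPX4, 0.47 for GSTP1, 0.35 for GPX1, -0.52 for NQO1 and -0.87 for MGST2.

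Neighbours of MGST1 on chromosome 12 did not all run the same way between the arms. Of 6 other protein-coding genes that RefSeq places within 1 Mb, 4 were in the files. EPS8, an adaptor of receptor signalling, averaged 55.5 ± 1.34 CPM with shNBD1, 67.0 ± 3.18 in the shRNA control, 56.6 ± 3.83 with the miRNA inhibitors and 57.5 ± 2.37 in their control (SD, n = 2 each). DERA, deoxyribose-phosphate aldolase, lay between 25.6 and 37.4 CPM in all libraries. Both genes overlapped between the arms. STRAP, a receptor-associated WD-repeat protein, ran opposite to MGST1, at 349.6 to 380.3 CPM in the shRNA arm and 238.5 to 278.4 CPM in the inhibitor arm. PTPRO, a receptor tyrosine phosphatase, ran the same way as MGST1 at a very low level. It had 1 and 0 reads with shNBD1, 2 and 0 in the shRNA control, 7 and 4 with the miRNA inhibitors and 7 and 14 in their control, and did not pass the filter on low counts.

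**Figure D3:**
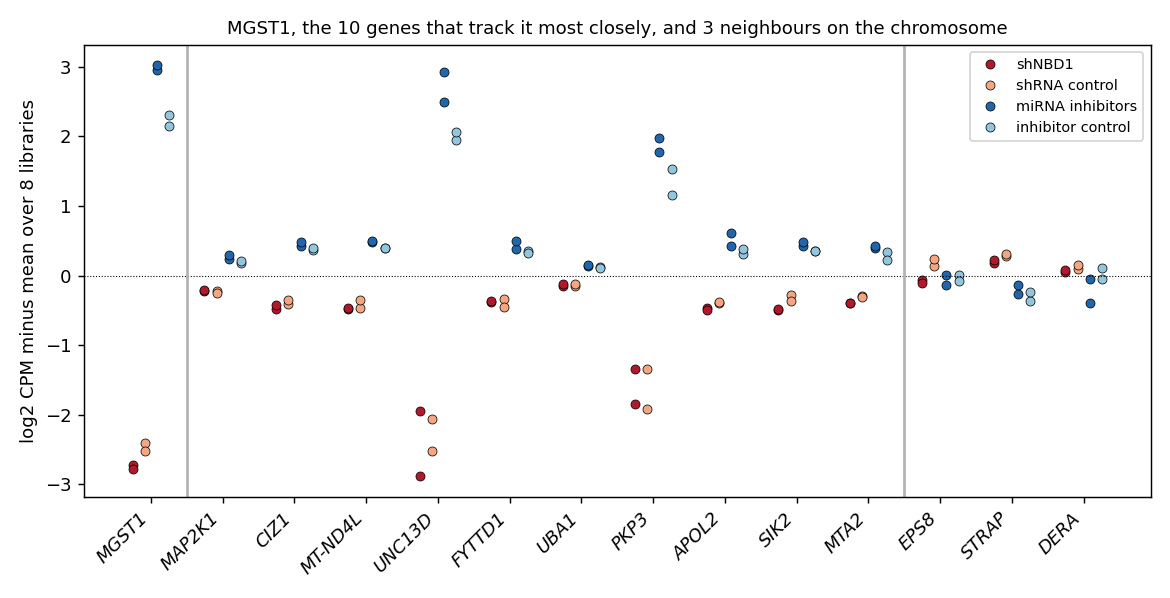
Log2 CPM of each library minus the mean over the 8 libraries, for MGST1, the 10 genes of highest r with it and 3 neighbours on chromosome 12; each point is 1 library, coloured by group. MGST1, UNC13D and PKP3 separate the arms by several log2 units, the other 8 tracking genes by less. STRAP separates the arms in the opposite direction, and EPS8 and DERA overlap between them.

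Of the marker sums of 6 other cell types, those for immune, muscle and endothelial genes did not overlap between the arms. Those for hepatocyte, epithelial and fibroblast genes did. The muscle and endothelial sums were lower in the shRNA arm, as MGST1 was, and the immune sum was higher there. The 3 hepatocyte genes summed to at most 0.655 CPM in any library, and ALB and TTR were at 0 in most. The 3 immune genes summed to 26.5 and 27.1 CPM with shNBD1, 38.0 and 38.5 in the shRNA control, 10.6 and 12.6 with the miRNA inhibitors and 11.8 and 15.2 in their control. CD68 gave nearly all of this, and PTPRC was at 0 in 6 of the 8 libraries. The 3 muscle genes, mostly ACTA2, summed to 357 to 360 CPM with shNBD1 and 298 to 327 in the shRNA control, against 412 to 433 with the miRNA inhibitors and 511 to 542 in their control. The 4 epithelial genes, mostly EPCAM, summed to 141 to 147, 148 to 149, 126 to 143 and 95.4 to 115 CPM in the same order of groups, and KRT5 never exceeded 0.256 CPM. The 5 fibroblast genes, mostly COL1A1, summed to 55.1 to 60.4, 40.0 to 41.0, 45.1 to 64.1 and 27.7 to 46.9 CPM, with DCN at most 0.164 CPM. The 3 endothelial genes summed to 1.16 to 1.42 CPM with shNBD1, 0.996 to 1.23 in the shRNA control, 1.75 to 3.21 with the miRNA inhibitors and 1.53 to 2.04 in their control. Of these endothelial genes, PECAM1 and VWF were lower in the shRNA arm and CDH5 ran the other way. CDH5 averaged 0.31 CPM with shNBD1 and 0.17 CPM in the shRNA control, and was at 0 in the inhibitor arm. In the muscle list DES and MYH7 overlapped between the arms. The part of these markers in the differences of MGST1 was not tested.

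The other genes of the pathway were counted in 10 lists with 136 genes beside the set, of which 110 were tested. With shNBD1, 5 rose and 10 fell (13.6% of those tested, against 18.3% of all genes). With the miRNA inhibitors edgeR called none (0.12% of all genes), and 22 had an unadjusted p under 0.05 (2183 of all 13306 genes). DESeq2 called 1 lower, GSTT2B, where it called 0.827% of all genes in either direction. The lists overlap, so a gene such as SLC7A11 is counted in several.

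Glutathione supply and recycling had 2 of 12 tested genes lower with shNBD1 (9.15% of all genes were) and none higher (9.18%), with a median log2 fold change of -0.08. SLC7A11, the cystine importer that feeds glutathione synthesis, stood at 14.0 and 11.3 CPM with shNBD1, against 31.2 and 31.1 CPM in the shRNA control, and fell by 1.30 ± 0.15 on the log2 scale (adjusted p = 0.000458). In cells with the miRNA inhibitors it stood at 8.25 and 10.6 CPM, against 8.28 and 10.6 CPM in their control. IDH1, which makes NADPH in the cytosol, fell by 0.88 ± 0.14 (0.00213), with 88.2 and 85.4 CPM with shNBD1 against 159.1 and 161.3 CPM in its control. SLC7A11 and IDH1 held their calls in 18 of 18 alternative analyses.

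Among other NRF2 targets, 1 of 24 rose (9.18% of all genes did) and 4 fell (9.15% of all genes) with shNBD1 (median -0.07). HMOX1, haem oxygenase, stood at 19.6 and 19.5 CPM with shNBD1 and at 44.2 and 44.1 CPM in the shRNA control, a fall of 1.18 ± 0.19 on the log2 scale (adjusted p = 0.00258) that held in 18 of 18 alternatives. In cells with the miRNA inhibitors HMOX1 stood at 43.4 and 60.5 CPM, against 33.7 and 49.2 CPM in their control, and was not called. FTH1, the ferritin heavy chain, fell by 0.59 ± 0.11 (0.00546), with 33.8 and 36.2 CPM with shNBD1 against 54.3 and 50.7 CPM in its control. NQO2, the relative of NQO1, fell by 0.53 ± 0.11 (0.00772) and ABCC1, which exports glutathione conjugates and was named after its values were seen, rose by 0.34 ± 0.07 (0.00591). The call of FTH1 was lost without shRNA control replicate 1 (0.0772) or shNBD1 replicate 1 (0.0576), and those of NQO2 (0.0518 to 0.0865) and ABCC1 (0.0518 to 0.0879) without any single library of the comparison.

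Of 12 genes for NRF2 and its regulators, 2 rose with shNBD1 (9.18% of all genes did) and none fell (9.15%), with a median of 0.07. MAFK, a small MAF partner of NRF2 and BACH1, rose by 1.65 ± 0.31 (adjusted p = 0.00559), at 13.9 and 16.2 CPM with shNBD1 against 5.51 and 3.93 CPM in the shRNA control. BACH1, the repressor of HMOX1 and other NRF2 targets, rose by 0.43 ± 0.09 (0.00733), at 59.4 and 57.9 CPM with shNBD1 against 44.0 and 43.0 CPM in the shRNA control. MAFK lost its call without shRNA control replicate 2 (0.064) or shNBD1 replicate 2 (0.0598), and BACH1 without any single library of the comparison (0.0606 to 0.0805). NFE2L2 and KEAP1, named after their values were seen, were not called, at -0.03 ± 0.08 (0.831) and -0.15 ± 0.09 (0.308).

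In the list for lipid peroxidation and ferroptosis, 3 of 10 genes fell with shNBD1 (9.15% of all genes did) and none rose (9.18%), with a median of -0.03. Beside SLC7A11 these were ACSL4, which loads polyunsaturated fatty acids into phospholipids, and POR, the cytochrome P450 reductase. ACSL4 stood at 53.5 and 52.9 CPM with shNBD1 and at 87.8 and 87.9 CPM in the shRNA control, a fall of 0.72 ± 0.07 (adjusted p = 0.000174) that held in 18 of 18 alternatives. POR fell by 0.38 ± 0.12 (0.0481) and lost its call without any single library of the comparison (0.0664 to 0.289). SLC7A11 and ACSL4 are known to act in opposite directions on ferroptosis, the first restraining and the second favouring it.

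Of 11 other peroxidases, dismutases and catalase, PRDX6 rose by 0.23 ± 0.06 and PRDX1 fell by 0.27 ± 0.07 with shNBD1 (adjusted p = 0.0304 and 0.0215, median of the list -0.09). Both are peroxiredoxins, which reduce peroxides, and both lost their calls without any single library of the comparison (0.0952 to 0.225). Of 15 thioredoxins and glutaredoxins, MSRB3, which repairs oxidised methionine, rose by 0.86 ± 0.14 (0.00248), in 18 of 18 alternatives, and TXNL1, a thioredoxin-like protein, fell by 0.26 ± 0.07 (0.0304), a call lost without any single library (0.051 to 0.282). The median of that list was 0.12. Over all genes, 9.18% rose and 9.15% fell with shNBD1. Of 5 tested relatives of the microsomal transferases and eicosanoid enzymes, PTGES3, the HSP90 co-chaperone that also has prostaglandin E synthase activity, fell by 0.40 ± 0.08 (0.00595) and lost its call without shRNA control replicate 1 (0.094) or shNBD1 replicate 2 (0.0898).

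No gene was called with shNBD1 among 9 other glutathione transferases (median -0.17), 16 other selenoproteins (0.07) or 7 genes of selenoprotein synthesis (-0.06). Of all genes, 18.3% were called. The smallest p-values in these lists belonged to GSTT2B (-0.20 ± 0.09, adjusted p = 0.159) and GSTZ1 (-0.18 ± 0.10, 0.242), GPX3 (0.31 ± 0.12, 0.0868) and TXNRD2 (0.20 ± 0.13, 0.286), and SECISBP2 (-0.22 ± 0.11, 0.181) and PSTK (-0.45 ± 0.22, 0.182).

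With the miRNA inhibitors the 10 lists had medians between -0.22 (other glutathione transferases) and 0.17 (relatives of the microsomal transferases and eicosanoid enzymes). The genes of smallest p in the transferase list were GSTT2B (-0.49 ± 0.09, adjusted p = 0.0803) and GSTZ1 (-0.42 ± 0.10, 0.121). Among other NRF2 targets they were the carbonyl reductase CBR3 (-0.32 ± 0.09, 0.152) and FTH1 (0.33 ± 0.11, 0.186). SRXN1, which restores overoxidised peroxiredoxins, was at 0.83 ± 0.29 (0.201). PRDX2 was at -0.24 ± 0.06 (0.123), ACSL4 at 0.23 ± 0.07 (0.162) and SQSTM1, which can sequester KEAP1, at 0.36 ± 0.13 (0.215).

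**Figure D4:**
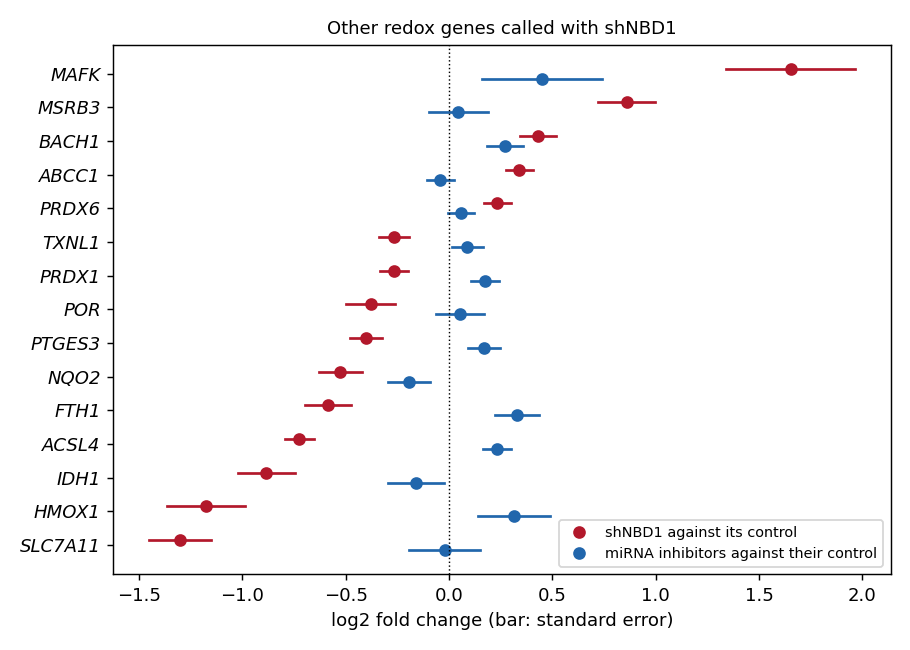
Log2 fold change (dots) and standard error (bars) of the 15 list genes called with shNBD1, shown for shNBD1 against its control (red) and for the miRNA inhibitors against their control (blue). Of the 15, 5 rose and 10 fell with shNBD1, from 1.65 for MAFK to -1.30 for SLC7A11, and none was called with the miRNA inhibitors.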

How the data were processed

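Per the labels' protocols, polysome lysates with cycloheximide went into a commercial ribosome profiling kit, used with modifications. The submitters' processing notes name cutadapt, Bowtie and GRCh38. The sources used here give neither the counting tool nor its use of strand and handling of multi-mapping reads. Each deposited file holds raw counts, whole numbers per feature. A feature absent from a library's list was taken as 0, and features were summed by symbol. The members and lists were chosen with earlier results of these data known.

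After filterByExpr (at least 10 counts, 15 in total) and TMM scaling, edgeR 4.0.16 (R 4.3.3, limma 3.58.1) fitted 1 quasi-likelihood model with 4 groups to the 8 libraries, leaving 4 residual degrees of freedom (common biological coefficient of variation 0.0753). Adjusted p-values are Benjamini-Hochberg over all 13306 genes, called under 0.05. SE are those implied by the test. Counting intervals are exact and cover counting error only; a count of 0 allows up to 3 counts. From each list, up to 4 called genes of largest fold were named, or the 2 of smallest p as values, not all of which are printed; genes near MGST1 and the 10 highest and 5 lowest in r were named by rule. Alternatives were other scaling, DESeq2 1.42.0, other filters, the comparison's libraries alone, the replicate number as a block, the highest feature per gene, no abundant features, and each library left out. The steps were tested on simulated counts. Names and coordinates come from RefSeq for GRCh38.p14.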

Additional observations from a re-analysis of the deposited data

Results flagged for a closer look

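None of the 9 enzymes met a rule for a closer look, since no group had 4 or more libraries and none had a called difference between the 2 treatment effects. Of the 110 other redox genes tested, 10 did, because the effect of shNBD1 and that of the miRNA inhibitors differed by the test of the difference itself (edgeR, adjusted over all genes), a share of 9.09% beside 7.44% of all genes. The contrast holds both control groups. HMOX1 differed by -1.49 ± 0.26 in log2 (adjusted p = 0.00855) and SLC7A11 by -1.28 ± 0.23 (0.01). The iron store FTH1 differed by -0.91 ± 0.15 (0.00737) and the lipid enzyme ACSL4 by -0.96 ± 0.10 (0.000675). The difference was -0.72 ± 0.19 for IDH1 (0.0465), -0.57 ± 0.11 for PTGES3 (0.0127) and -0.44 ± 0.10 for PRDX1 (0.0217). In the other direction stood MSRB3 at 0.81 ± 0.20 (0.0336), the carbonyl reductase CBR3 at 0.51 ± 0.13 (0.0393) and ABCC1 at 0.38 ± 0.09 (0.0321), none of which DESeq2 called (0.104, 0.13 and 0.0658). Over the 110 genes DESeq2 called 0 higher and 8 lower, where it called 352 higher and 383 lower over all genes (5.52%). Of the 10 genes flagged by edgeR, ACSL4 held its call in 17 of 17 alternative analyses, FTH1 in 16, HMOX1 in 15, SLC7A11 in 14, PRDX1 and PTGES3 in 13, ABCC1 in 12, IDH1 and MSRB3 in 10 and CBR3 in 8.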

How the results depend on the processing

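The counts of enzymes called varied between alternatives, and the cause was not tested. With shNBD1 against its control (0 higher and 1 lower), they were 0 lower with DESeq2, where 12.8% of all genes were called. They were 1 higher and 0 lower with no filter on low counts (15% of all genes), and 1 higher and 4 lower on the 4 libraries alone (41.9%). With the miRNA inhibitors (0 and 0) there was 1 higher with no filter, where 1.04% of all genes were called. This was MGST1, from which nothing is read. With 1 library left out, which leaves 1 library in a group, the counts varied in every comparison. Between the treated groups, the log2 fold change of MGST2 was positive in all 18 alternatives, the next fit among them. The fit without both inhibitor control replicate 1 and miRNA inhibitors replicate 2 was chosen after seeing the data. This fit leaves 1 library in each group of the inhibitor arm, so neither counts that use that arm nor MGST1 are read. It gave 1 higher and 4 lower with shNBD1, 1 and 1 with the miRNA inhibitors, 1 higher for the difference, and 6 lower between the treated groups; over all genes, it called 39.1% with shNBD1 and 3.72% with the miRNA inhibitors.

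Labels give the groups the same replicate numbers but do not say that a number marks a shared culture or day, and deviations of same-numbered libraries correlated at 0.0152 within the shRNA arm and 0.42 within the inhibitor arm. With the replicate block, 1 enzyme was higher and 2 lower with shNBD1, and 1 was lower for the difference, TXNRD1 (0.0473). With the miRNA inhibitors 1 was higher, MGST1, from which nothing is read because its inhibitor control helped choose the set. Between the treated groups 5 were lower with shNBD1, and MGST2 stayed called higher. Over all genes the block called 25.6% with shNBD1, 5.07% with the miRNA inhibitors, 14% for the difference and 40.2% between the treated groups.

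Directions that turned were those of values not called in the analysis as reported. With 1 library left out, GCLM ran from -0.057 to 0.086 with shNBD1. For the miRNA inhibitors, GPX1 ran from -0.24 to 0.46, GSTP1 from -0.012 to 0.15 and GPX4 from -0.30 to 0.030. For the difference, MGST3 ran from -0.051 to 0.10 and NQO1 from -0.16 to 0.0094. Between the treated groups, GPX4 ran from -0.20 to 0.12 and GSTP1 from -0.10 to 0.060. Without both libraries, the values that turned were GPX1 at -0.38, GSTP1 at -0.044, GPX4 at 0.017 and TXNRD1 at -0.057 for the miRNA inhibitors, GPX1 at 0.059 for the difference, and GSTP1 at 0.053 between the treated groups.

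DESeq2 gave no adjusted p for MGST1 with the miRNA inhibitors, MGST1 was not tested on the shRNA arm alone because too few reads remained, and the difference has no fit on one comparison's libraries. Where 1 library of a group was left out, the remaining one was taken to vary like those of the other groups. In the shRNA arm the depth of MGST1, 3 or 4 reads per library, limits every statement on it.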
